A study of Homo sapiens with 9 samples.

Results

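The promoters of 44 DNA repair and checkpoint genes were examined for open chromatin in the 9 ATAC-seq libraries of MDA-MB-231 cells. The genes were listed by function, covering homologous recombination, the Fanconi anaemia pathway and the damage checkpoint with some close partners, and the rule that lists them uses no measured value. They are 44 of the 20033 protein-coding genes with a canonical transcription start site (TSS) in GENCODE release 44. For every gene the strongest peak touching the window from 1 kb before to 1 kb after the TSS was taken in each library. Its strength was its fold enrichment, the ratio of the signal at the summit to the local background. Each fold enrichment was expressed as a percentile among all peaks of the same library, so that 100 is the strongest peak of the list.

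MDA-MB-231 is a human triple-negative breast cancer cell line, and ATAC-seq marks open DNA by the adapters that the Tn5 transposase inserts into it. Cells carrying a control shRNA (shCtrl), an shRNA against EZH2 (shEZH2) or an shRNA against E2F1 (shE2F1) gave 2 libraries each. Cells with an shRNA against SUZ12 (shSUZ12), cells given the solvent DMSO and cells given GSK126, an inhibitor of the EZH2 methyltransferase, gave 1 library each. EZH2 and SUZ12 are subunits of Polycomb repressive complex PRC2, E2F1 is a transcription factor of cell cycle genes, and the study asked how accessibility depends on EZH2 and E2F1. The shRNA lentivirus was left on the cells for 24 h, and puromycin at 2 μg/ml was then applied for 72 h. GSK126 was given for 72 h, and its concentration for these libraries is not given in the sources used here. The labels do not say whether replicates came from separate cultures, so the spread between them may be technical. All 9 libraries come from the same cell line.

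Homologous recombination repairs a DNA double-strand break by copying an intact sister strand. The broken ends are sensed and trimmed, BRCA1 and BRCA2 act on the trimmed ends, and the strand then invades its partner. The Fanconi anaemia proteins unhook DNA crosslinks, and the kinases ATR, ATM, CHEK1, CHEK2 and WEE1 hold the cell cycle until the damage is dealt with. Many genes of these pathways are transcribed from CpG-rich promoters that open in growing cells, and E2F factors are known to control a number of them.

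The promoter sequences of 6 of these genes, 250 bases before to 50 bases after the start in RefSeq on GRCh38.p14, are shown because their peaks are among those named below for a difference from the control, and all 6 had a RefSeq entry. They are written 5′ to 3′ on the gene's own strand, and capitals mark a match to an E2F word (TTTCCCGC, TTTCGCGC, TTTGCCGC or TTTGGCGC on either strand). TOPBP1 lies on the minus strand at chr3:133661892-133662191, FANCD2 on the plus strand at chr3:10026187-10026486 and MSH6 on the plus strand at chr2:47782895-47783194, each with 1 match. PARP1 on the minus strand at chr1:226408044-226408343, RAD51AP1 on the plus strand at chr12:4538640-4538939 and RBBP8 on the plus strand at chr18:22933078-22933377 held none of these words and are all in lower case.
TOPBP1: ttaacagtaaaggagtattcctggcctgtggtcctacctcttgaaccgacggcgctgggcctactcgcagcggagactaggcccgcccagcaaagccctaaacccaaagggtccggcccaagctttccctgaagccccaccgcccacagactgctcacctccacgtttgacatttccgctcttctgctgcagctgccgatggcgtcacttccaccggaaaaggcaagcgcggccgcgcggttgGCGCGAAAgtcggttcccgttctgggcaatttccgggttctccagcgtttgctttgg
FANCD2: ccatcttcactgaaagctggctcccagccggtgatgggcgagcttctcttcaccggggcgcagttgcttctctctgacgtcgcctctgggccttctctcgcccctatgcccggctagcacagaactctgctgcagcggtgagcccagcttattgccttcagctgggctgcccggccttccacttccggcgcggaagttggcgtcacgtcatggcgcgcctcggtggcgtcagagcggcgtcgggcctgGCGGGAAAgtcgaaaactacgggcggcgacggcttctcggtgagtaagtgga
MSH6: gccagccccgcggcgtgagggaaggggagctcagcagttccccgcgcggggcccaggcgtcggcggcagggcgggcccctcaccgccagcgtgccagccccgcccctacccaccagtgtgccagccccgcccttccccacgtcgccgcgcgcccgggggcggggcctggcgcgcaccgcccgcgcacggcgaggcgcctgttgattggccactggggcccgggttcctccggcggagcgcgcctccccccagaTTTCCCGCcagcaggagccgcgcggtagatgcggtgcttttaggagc
PARP1: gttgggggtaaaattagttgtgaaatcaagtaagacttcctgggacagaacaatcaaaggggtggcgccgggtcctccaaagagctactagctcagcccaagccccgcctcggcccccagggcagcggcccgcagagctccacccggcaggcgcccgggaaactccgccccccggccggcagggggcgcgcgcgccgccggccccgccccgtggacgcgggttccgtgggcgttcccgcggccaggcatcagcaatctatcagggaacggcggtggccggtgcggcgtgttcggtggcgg
RAD51AP1: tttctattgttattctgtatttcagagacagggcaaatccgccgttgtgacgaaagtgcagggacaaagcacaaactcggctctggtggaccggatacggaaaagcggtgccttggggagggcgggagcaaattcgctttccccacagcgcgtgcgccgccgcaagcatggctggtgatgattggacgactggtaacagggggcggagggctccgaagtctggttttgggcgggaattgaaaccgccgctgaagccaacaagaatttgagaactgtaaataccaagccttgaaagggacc
RBBP8: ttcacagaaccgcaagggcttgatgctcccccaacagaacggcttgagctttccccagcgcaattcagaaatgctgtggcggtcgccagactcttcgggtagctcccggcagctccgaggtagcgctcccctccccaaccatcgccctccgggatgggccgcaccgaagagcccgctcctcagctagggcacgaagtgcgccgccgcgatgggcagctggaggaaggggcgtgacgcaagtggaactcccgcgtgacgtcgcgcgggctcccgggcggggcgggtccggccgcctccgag
The summit of the strongest peak lay inside the printed 300 bases in 9 of 9 libraries for FANCD2, MSH6, PARP1 and RAD51AP1, in 8 for TOPBP1 and in 6 for RBBP8.

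Peak lists held 58626 to 85812 peaks, the fewest in shEZH2 replicate 2, and 12417 to 13361 of the 20033 promoters had a peak. The 5 markers of mesenchymal, basal-like breast cancer lines (VIM, CD44, ZEB1, CAV1 and AXL) had promoter peaks in all 9 libraries. Their percentiles ran from 0.81 for AXL to 69.2 for ZEB1, and luminal markers reached at most 35.6, for ESR1. The epithelial junction genes ranked at 61.3 to 92.2 for EPCAM and 6.76 to 23.7 for CDH1. Of the luminal markers, GATA3 had a promoter peak in none, ESR1, PGR, FOXA1 and SPDEF had one in 6 to 8, and of the epithelial junction genes CDH1 had one in 8 and EPCAM in 9. PTPRC and CD3E of blood and ALB and APOA1 of liver had none, and of the endothelial pair PECAM1 had none and CDH5 had one in 1 library. EZH2, E2F1 and SUZ12 themselves kept a promoter peak in all 9 libraries, which checks nothing about the knockdowns, since an shRNA acts on the transcript. No peak list can tell fewer open cells from less open chromatin in each cell.

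Nearly every repair and checkpoint promoter was open in every library. Of the 44 genes, 43 (97.7%) had a promoter peak in all 9 libraries, against 12026 of 20033 protein-coding promoters (60.0%). A further list of 52 repair and checkpoint genes had 49 with a peak throughout (94.2%). The missing value was that of RAD51B, a homologous recombination gene, in shEZH2 replicate 2. The peaks were also strong. The median percentile of the 44 genes lay between 80.9 in shEZH2 replicate 1 and 90.3 in shE2F1 replicate 2, and the median of all promoters with a peak lay between 71.9 and 79.1. In each of the 9 libraries the median of these genes exceeded that of all promoters. The further 52 genes had higher medians still in every library, from 83.6 in shEZH2 replicate 1 to 91.4 in shE2F1 replicate 2. Cuts at the summits of the 44 genes were recovered from the deposited values under a formula assumed for the peak caller. Their median ran from 55.5 in shE2F1 replicate 1 to 127 in shSUZ12.

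**Figure D1:**
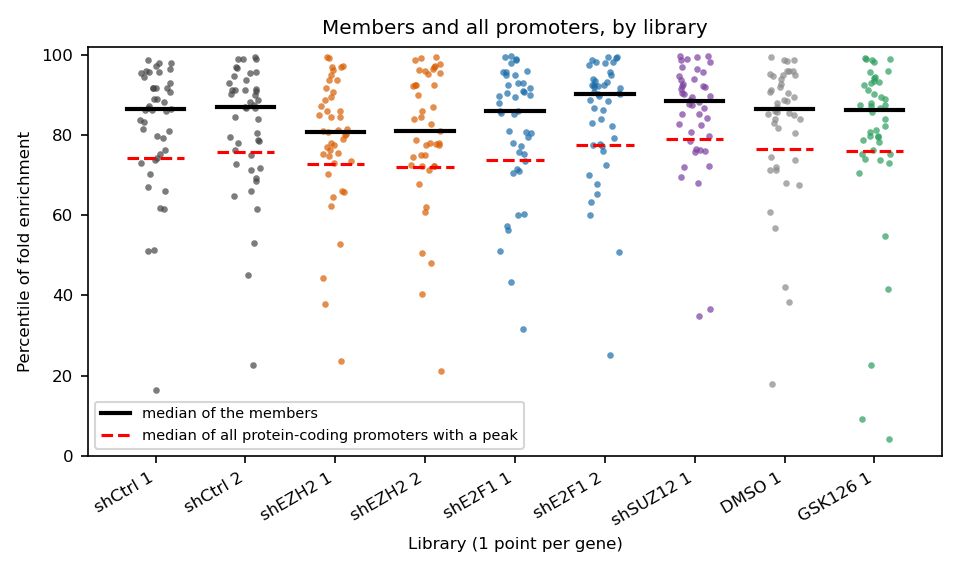
Each point is the percentile of fold enrichment of 1 gene's strongest promoter peak within the peak list of 1 library, for the 44 repair and checkpoint genes. Solid bars are their medians, 80.9 to 90.3, which lie above the dashed medians of all protein-coding promoters with a peak, 71.9 to 79.1, in every library.

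The homologous recombination genes spanned the whole range of peak strength. XRCC2, which acts in strand exchange, ranked at percentiles from 98.0 to 99.6 over the 9 libraries, whereas RAD51B ranked at 16.5 and 45.02 in shCtrl, 23.7 in shEZH2 replicate 1, 31.6 and 25.1 in shE2F1, 36.6 in shSUZ12, 17.9 in DMSO and 4.16 in GSK126. RAD51B was thus the weakest of the 44 and differed most between the 2 shCtrl libraries, by 28.5 percentile points. BRCA1, a tumor suppressor that promotes end trimming, starts at position 43125364 on the minus strand of chromosome 17. Its peak ranked at 91.8 and 91.1 in shCtrl, 85.1 and 77.4 in shEZH2, 91.1 and 94.1 in shE2F1, 92.2 in shSUZ12, 90.6 in DMSO and 80.8 in GSK126. Both shEZH2 libraries and the GSK126 library were the low ones for BRCA1. BRCA2, a tumor suppressor that prepares the trimmed strand for invasion, ranked at 86.0 and 71.2 in shCtrl, 80.7 and 82.8 in shEZH2, 78.1 and 82.2 in shE2F1, 87.9 in shSUZ12, 72.0 in DMSO and 79.6 in GSK126. The gap between the shCtrl libraries of BRCA2 took in both knockdowns. PALB2, the bridge between BRCA1 and BRCA2, ranked at 96.5 and 99.6 in shCtrl, 86.0 and 98.7 in shEZH2, 95.6 and 99.4 in shE2F1, 99.6 in shSUZ12, 98.6 in DMSO and 98.8 in GSK126. For BARD1, the partner of BRCA1 in its ubiquitin ligase, the values were 90.7 and 87.6 in shCtrl, 88.8 and 92.5 in shEZH2, 91.7 and 92.0 in shE2F1, 92.3 in shSUZ12, 92.7 in DMSO and 92.4 in GSK126. BARD1 varied little, and for PALB2 the low value of shEZH2 replicate 1 stood apart from the other libraries.

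Among the genes of break sensing, end trimming and DNA unwinding, MRE11 had the strongest promoter of all 44. MRE11, the nuclease of the MRN complex, ranked between 98.8 and 99.7 in the 9 libraries. BLM, the Bloom syndrome helicase, ranked at 95.9 and 94.9 in shCtrl, 96.9 and 95.3 in shEZH2, 92.6 and 98.1 in shE2F1, 98.3 in shSUZ12, 96.1 in DMSO and 98.2 in GSK126, so that its groups overlapped. RBBP8, which encodes the end-resection factor CtIP, ranked at 73.2 and 75.2 in shCtrl, 73.0 and 78.0 in shEZH2, 90.01 and 84.1 in shE2F1, 72.0 in shSUZ12, 71.3 in DMSO and 79.7 in GSK126. Both shE2F1 libraries lay above the other 7 for RBBP8. RAD50, the ATPase of the MRN complex, ranked at 86.3 and 78.9 in shCtrl, 62.3 and 72.2 in shEZH2, 86.0 and 83.1 in shE2F1, 82.8 in shSUZ12, 80.5 in DMSO and 84.0 in GSK126. The 2 shEZH2 libraries were the lowest for RAD50, and there the strongest summit lay 629 and 642 bp downstream of the TSS, while in the other 7 libraries it lay at −90 to −34 bp, negative values being upstream. RAD50 was the single gene of the 44 whose strongest peaks did not share a base over all libraries.

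The checkpoint kinases and their partners ranged from ATM near the top to TOPBP1 near the bottom. ATM, the kinase that answers double-strand breaks, ranked at 91.8 and 91.6 in shCtrl, 89.5 and 97.7 in shEZH2, 94.99 and 93.3 in shE2F1, 94.8 in shSUZ12, 95.1 in DMSO and 96.0 in GSK126. ATR, the kinase that answers stalled replication forks, ranked at 93.1 and 86.8 in shCtrl, 74.8 and 96.9 in shEZH2, 88.0 and 90.7 in shE2F1, 92.1 in shSUZ12, 95.0005 in DMSO and 94.6 in GSK126. The 2 shEZH2 libraries were the lowest and the highest for ATR, and they were also the lowest and the highest for ATM. CHEK1, the kinase downstream of ATR, ranked at 79.7 and 76.4 in shCtrl, 75.3 and 72.6 in shEZH2, 79.6 and 77.6 in shE2F1, 80.9 in shSUZ12, 67.7 in DMSO and 70.6 in GSK126. CHEK2, its counterpart downstream of ATM, ranked at 83.8 and 86.7 in shCtrl, 86.1 and 75.1 in shEZH2, 89.7 and 88.8 in shE2F1, 88.8 in shSUZ12, 85.5 in DMSO and 87.6 in GSK126. The DMSO and GSK126 libraries were the lowest for CHEK1, while for CHEK2 the lowest was shEZH2 replicate 2.

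WEE1 and TOPBP1 lay apart from shCtrl in both knockdowns. WEE1, which holds CDK1 inactive before mitosis, ranked at 62.0 and 68.7 in shCtrl, 70.3 and 75.0 in shEZH2, 71.0 and 77.3 in shE2F1, 75.9 in shSUZ12, 68.0 in DMSO and 78.4 in GSK126. Each of the 5 shRNA-depleted libraries lay above both shCtrl libraries for WEE1, and GSK126 lay above DMSO. Over all promoters compared, 4.52% lay higher in both knockdowns and 52.6% lay above shCtrl in shSUZ12. The share with the whole pattern of WEE1 was not counted. Over 6 ways of ranking and windowing, described below, WEE1 was called higher in 5 for shEZH2, for shE2F1 and for GSK126. TOPBP1, the activator of ATR, starts at position 133661941 on the minus strand of chromosome 3, in the sequence shown above. It ranked at 51.4 and 53.2 in shCtrl, 44.4 and 21.1 in shEZH2, 60.4 and 63.3 in shE2F1, 76.6 in shSUZ12, 42.2 in DMSO and 9.11 in GSK126. The lowest TOPBP1 values were those of GSK126 and shEZH2 replicate 2, and the highest was that of shSUZ12. These ranks rest on few cuts. The TOPBP1 summit held 32 and 34 cuts in shCtrl, 21 and 13 in shEZH2, 19 and 35 in shE2F1, 49 in shSUZ12, 28 in DMSO and 13 in GSK126. The exact Poisson 95% interval, which covers counting error only, ran from 21.9 to 45.2 for the 32 cuts and from 6.92 to 22.2 for the 13 cuts.

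Fanconi anaemia promoters held several of the weaker peaks. FANCD2, which is ubiquitinated at crosslinks, starts at position 10026437 on the plus strand of chromosome 3. It ranked at 65.9 and 80.6 in shCtrl, 64.7 and 72.2 in shEZH2, 80.9 and 86.2 in shE2F1, 72.3 in shSUZ12, 56.9 in DMSO and 41.7 in GSK126. FANCI, the partner of FANCD2, ranked at 86.2 and 92.9 in shCtrl, 76.3 and 84.0 in shEZH2, 98.1 and 95.8 in shE2F1, 93.9 in shSUZ12, 92.0 in DMSO and 85.7 in GSK126. For FANCD2 and FANCI alike the shE2F1 libraries were the highest and the shEZH2 libraries did not reach them. FANCM, the DNA translocase that anchors the core complex, was second only to RAD51B in weakness and ranked at 51.1 and 22.7 in shCtrl, 37.9 and 40.3 in shEZH2, 51.1 and 51.0 in shE2F1, 35.0 in shSUZ12, 38.3 in DMSO and 22.7 in GSK126. FANCF, a core complex adaptor, ranked at 89.1 and 91.3 in shCtrl, 84.5 and 72.4 in shEZH2, 73.4 and 90.3 in shE2F1, 85.3 in shSUZ12, 84.1 in DMSO and 78.8 in GSK126. The shCtrl libraries of FANCF were not overlapped by either shEZH2 library or by shSUZ12. FANCE, which links the core complex to FANCD2, ranked at 87.3 and 88.8 in shCtrl, 81.5 and 90.1 in shEZH2, 93.0 and 91.7 in shE2F1, 85.3 in shSUZ12, 94.8 in DMSO and 86.8 in GSK126. FANCL, the ubiquitin ligase of the complex, was the strongest of the 9 Fanconi genes, between 90.9 and 99.2.

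Of the genes that act on chromatin around a break, TP53BP1 and RIF1 had strong promoters and PARP1 and MDC1 weaker ones. TP53BP1, which restrains end trimming, ranked at 95.4 and 97.0 in shCtrl, 91.8 and 87.0 in shEZH2, 98.9 and 98.2 in shE2F1, 96.6 in shSUZ12, 88.7 in DMSO and 93.4 in GSK126. PARP1, the enzyme that marks breaks with poly(ADP-ribose), ranked at 79.3 and 71.8 in shCtrl, 65.8 and 50.7 in shEZH2, 71.7 and 65.4 in shE2F1, 76.3 in shSUZ12, 85.2 in DMSO and 75.4 in GSK126. RIF1, which works with TP53BP1, stayed between 92.5 and 99.0. The mismatch repair gene MSH6 ranked at 73.8 and 72.8 in shCtrl, 77.2 and 74.6 in shEZH2, 85.2 and 77.8 in shE2F1, 76.0 in shSUZ12, 74.6 in DMSO and 79.9 in GSK126. PMS2, the endonuclease of the same pathway, ranked at 86.8 and 87.1 in shCtrl, 81.0 and 77.9 in shEZH2, 90.8 and 92.2 in shE2F1, 90.4 in shSUZ12, 81.7 in DMSO and 89.4 in GSK126. MSH6 was lowest in the shCtrl libraries and PMS2 in the shEZH2 libraries.

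**Figure D2:**
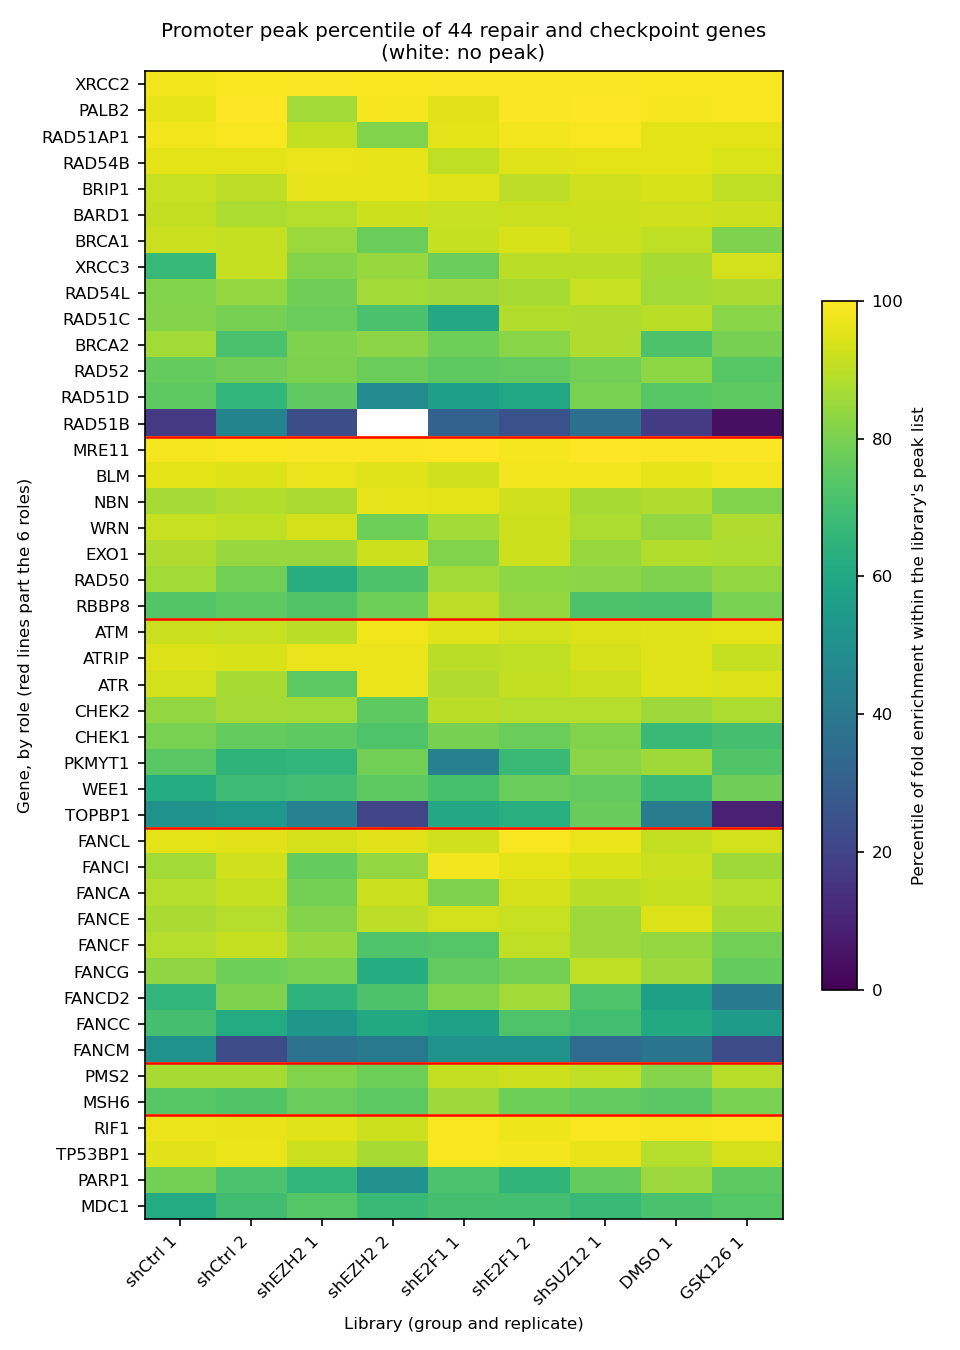
The colour of each cell is the percentile of fold enrichment of 1 gene's strongest promoter peak (rows, by role and then by median) within the list of 1 library (columns), and white is no peak. Most cells are above 70, the dark rows are RAD51B, FANCM and TOPBP1, and the single white cell is RAD51B in shEZH2 replicate 2.

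Many of these peaks belong to more than 1 gene. A start site on the opposite strand lay within 1 kb upstream of 18 of the 44 genes (40.9%), against 3959 of 20033 protein-coding promoters (19.8%). The divergent neighbour was itself protein-coding for 10 of them (22.7%, against 9.46% of all promoters). These were BRCA2 with ZAR1L at 145 bp, PALB2 with DCTN5 at 156 bp, MRE11 with ANKRD49 at 140 bp, CHEK2 with HSCB at 219 bp, PMS2 with AIMP2 at 223 bp, XRCC3 with ZFYVE21 at 359 bp, RAD51AP1 with C12orf4 at 421 bp, ATM with NPAT at 429 bp, WRN with PURG at 454 bp, and RAD51C with TEX14 and IGBP1C at 557 bp. BRCA1 shared its promoter with the long noncoding RNA NBR2 at 187 bp, BARD1 with SNHG31 at 526 bp and BLM with CRTC3-AS1 at 205 bp. EXO1, ATRIP, TOPBP1, FANCD2 and FANCL each had an unnamed divergent noncoding RNA between 24 and 105 bp away, and RBBP8 and CHEK1 overlapped one head to head, 436 and 750 bp into the gene. In every such pair the same peak was the strongest of both promoters in 9 of 9 libraries, so the percentiles of these genes cannot be assigned to 1 direction of transcription. The genes with a divergent neighbour of any type had a median percentile of 89.5, from 51.4 to 99.5, and the 26 without one had a median of 81.0, from 24.4 to 99.1. The 2 sets overlapped over most of their range.

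Summits lay just upstream of the start. Taking the median over libraries, 40 of the 44 genes had their summit upstream, and the median over genes was −75 bp. All summits of a gene fell within 200 bp of each other for 34 genes, and for 10 they did not. RBBP8 had summits from −10 to 428 bp, FANCF from −129 to 273 bp and RAD51D from −7 to 239 bp. Summits of TOPBP1 ran from −90 to 161 bp and those of RAD52 from −243 to 47 bp. These genes are named below for a knockdown difference, and their ranks compare summits at different places in some libraries. CHEK1 was the furthest from its start, with a median summit 1055 bp downstream, in intron 1, and a peak that covered the TSS in none of 9 libraries. NBN, the third subunit of the MRN complex, and FANCC, of the Fanconi core complex, also had their summits in intron 1, at medians of 468 and 325 bp. CHEK2 had summits between its own start and that of its divergent neighbour HSCB, 219 bp upstream, and others beyond the HSCB start. In shCtrl replicate 2, shEZH2 replicate 1 and GSK126 its summit lay at −709, −640 and −688 bp, and in the other 6 libraries at −160 to −57 bp.

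**Figure D3:**
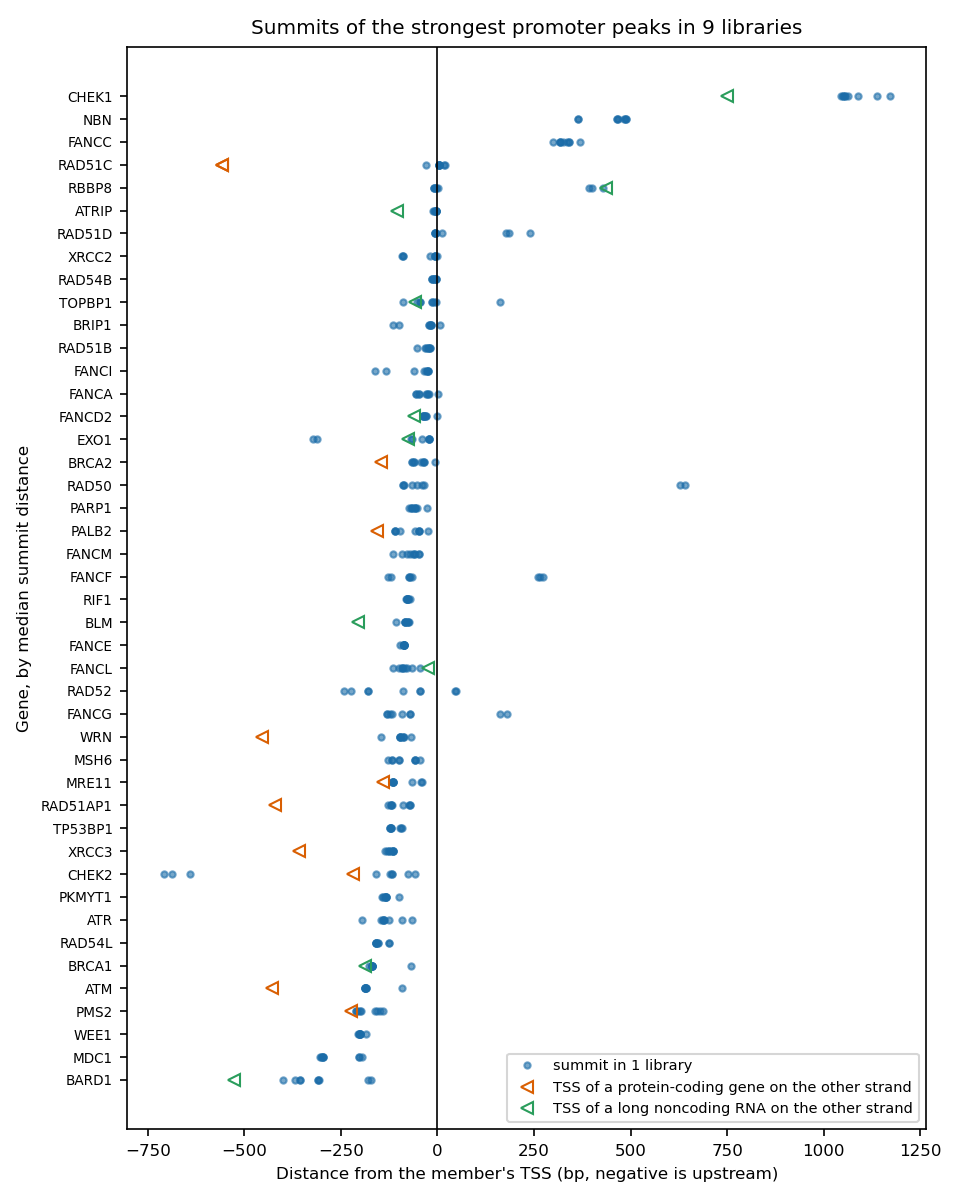
Each dot is the summit of a gene's strongest promoter peak in 1 library, at its distance in bp from the TSS with negative values upstream, and triangles mark start sites on the other strand. Most dots lie just left of 0, with CHEK1, NBN and FANCC to the right. The dots of 10 genes, RAD50, CHEK2 and RBBP8 among them, are spread over more than 200 bp.

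An E2F word was found at 8 of these promoters, and no test was made of its frequency. The RefSeq promoters of 38 of the 44 genes were found, and RAD54B, NBN, WRN, WEE1, PKMYT1 and FANCI were not matched. An E2F word on either strand was present in 8 of the 38 (21.1%), namely XRCC2, EXO1, TOPBP1, FANCA, FANCC, FANCD2, MSH6 and PMS2, and in 689 of 15345 promoters of the same length (4.49%). The CCAAT box (CCAAT) was present in 19 (50%, against 36.6% of all), the cyclic AMP response element (TGACGTCA) in 4 (10.5%, against 2.64%), and the ETS word CCGGAAGT in 5 (13.2%, against 6.32%). The cell cycle homology region (TTTGAA or TTCGAA) was present in 5 (13.2%, against 13.5%) and the NRF1 word GCATGCGC in 1, XRCC2 (2.63%, against 4.25%). All were searched on both strands, and no word of one motif contains a word of another. The median GC content was 64.3% for the 38 promoters and 63.0% for all. A match describes the letters and is not evidence of a bound site.

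In shEZH2 cells BRCA1, RAD51AP1, TOPBP1, PARP1 and RAD50 lay lower in their lists than in shCtrl cells, and WEE1 and BRIP1 lay higher. A gene was counted when both knockdown libraries lay on the same side of both shCtrl libraries. With 2 libraries against 2, a two-sided exact permutation test of 1 gene cannot go below p = 0.333, so this is a description and not a test. Of 43 genes compared, 14 lay lower and 7 higher, while over all 12234 promoters compared 29.7% lay lower and 10.6% higher. The shares among the repair genes, 32.6% and 16.3%, were near that background. Their median difference was −2.19 percentile points, and that of all promoters was −2.58.

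The lower genes came from every role. TOPBP1 differed by −19.5 percentile points in the mean, PARP1 by −17.3 and RAD50 by −15.4. For RAD50 the shEZH2 summits lay at another place than those of the other libraries, as given above. RAD51AP1, a cofactor in strand invasion, ranked at 98.0 and 99.1 in shCtrl, 90.7 and 81.0 in shEZH2, 96.0 and 98.3 in shE2F1, 98.8 in shSUZ12, 96.0 in DMSO and 95.8 in GSK126, a difference of −12.7 for shEZH2. Its 2 shEZH2 values were below all other 7 libraries. FANCF differed by −11.7 and BRCA1 by −10.2. The Fanconi list had 4 of its 9 genes lower and none higher, with a median difference of −4.82, and the chromatin list had 3 of 4 lower. Over all promoters 29.7% lay lower and 10.6% higher, and differences between these small lists were not tested. Homologous recombination genes were split, with 3 lower and 3 higher of 13 compared and a median of 0.617. On the higher side WEE1 differed by 7.37 and BRIP1, the helicase partner of BRCA1, by 5.34. BRIP1 ranked at 91.6 and 89.996 in shCtrl, 96.2 and 96.1 in shEZH2, 95.03 and 90.2 in shE2F1, 92.7 in shSUZ12, 93.9 in DMSO and 90.4 in GSK126. ATRIP, the partner of ATR, differed by 2.87, MSH6 by 2.58 and RAD54B, a motor protein of strand exchange, by 0.80. Over the further 52 genes 15 lay lower and 7 higher of 50 compared.

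The shEZH2 lists were shorter than those of shCtrl, with 72202 and 58626 peaks against 78600 and 81743, and the median cuts at these genes' summits were 80.5 and 65.0 against 103 and 124. The part of list length and depth in the lower ranks was not tested. When each list was shortened to its 58626 strongest peaks, 8 genes lay lower and 12 higher, against 14.4% and 23.9% of all promoters. The median difference turned to 0.71, and that of all promoters turned to 1.30. Ranked by −log10 p, 19 genes lay lower and 1 higher, against 42.2% and 4.15% of all promoters. Over 6 ways of ranking the peaks or choosing the window, BRCA1, RAD51AP1, TOPBP1, FANCF, PMS2, PARP1, TP53BP1 and RIF1 lay lower in all 6, and BRIP1 was the one gene higher in all 6. The share of all promoters called in all 6 was not counted. Some of the 6 differ little from the main one. A −log10 q of at least 5, 500 bp windows and summits inside the window gave 14, 14 and 13 genes lower and 7 higher each. Leaving out a library loosens the criterion for all promoters too. Without shEZH2 replicate 2, 22 genes lay lower and 12 higher, against 45.7% and 26.5% of all promoters. Without shEZH2 replicate 1, 18 and 17 did, against 53.8% and 24.1%, and the median difference turned to 0.29, where that of all promoters was −3.33. Without shCtrl replicate 1, 18 lay lower and 13 higher, against 47.5% and 18%, and without shCtrl replicate 2, 17 and 11, against 42% and 23.2%.

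In shE2F1 cells, by fold enrichment and not by −log10 p, more of these genes lay above the control than below it, led by RBBP8, FANCD2 and TOPBP1. All 44 genes were compared, and 5 lay lower and 17 higher, where 17% and 19.2% of 12516 promoters did. Their median difference was 1.03 percentile points, against −0.07 for all promoters. Of the further 52 genes, 49 were compared, and 10 lay lower and 13 higher, with a median difference of 0.55. RBBP8 differed by 12.9, FANCD2 by 10.3, TOPBP1 by 9.55, WEE1 by 8.86 and MSH6 by 8.15. Both mismatch repair genes of the 44, MSH6 and PMS2, lay higher, each in 5 of the 6 ways of ranking and windowing. MSH3, a mismatch repair gene of the further list, had no promoter peak in either shE2F1 library or in shEZH2 replicate 2. Higher too were 3 of 4 chromatin genes, 4 of 8 checkpoint genes and 3 of 9 Fanconi genes. Of the 7 genes of break sensing, end trimming and unwinding 2 lay higher. The 14 homologous recombination genes were split, with 3 higher and 3 lower. Differences between these small lists were not tested. FANCM had the largest mean difference of all, 14.1, but its shCtrl values of 51.1 and 22.7 took in the shE2F1 ones.

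The lower genes in shE2F1 cells were RAD51D, PARP1, ATRIP, RAD54B and RAD52. RAD51D, which acts in homologous recombination, ranked at 75.3 and 66.1 in shCtrl, 75.5 and 48.1 in shEZH2, 56.3 and 60.0 in shE2F1, 79.8 in shSUZ12, 73.9 in DMSO and 75.4 in GSK126, a difference of −12.5. Apart from shEZH2 replicate 2, the shE2F1 libraries were the lowest for RAD51D. PARP1 differed by −7.01 and ATRIP by −4.13, with ATRIP at 94.6 and 93.8 in shCtrl, 97.0 and 97.1 in shEZH2, 89.6 and 90.5 in shE2F1, 93.7 in shSUZ12, 95.2 in DMSO and 91.3 in GSK126. RAD54B, at 95.9 in both shCtrl libraries, stood at 97.2 and 96.2 in shEZH2, 90.5 and 95.1 in shE2F1, 95.9 in shSUZ12, 96.0 in DMSO and 94.3 in GSK126, a difference of −3.08. RAD52, a mediator of strand annealing, ranked at 76.4 and 78.5 in shCtrl, 80.4 and 77.7 in shEZH2, 75.2 and 76.1 in shE2F1, 78.6 in shSUZ12, 83.1 in DMSO and 74.0 in GSK126, a difference of −1.78. Both ATRIP and RAD54B lay above shCtrl in shEZH2 cells and below it in shE2F1 cells.

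Ranking by −log10 p in place of fold enrichment gave 7 genes lower and 5 higher in shE2F1 cells, against 22.8% and 12.4% of all promoters. The median difference turned to −0.40, and that of all promoters was −0.94. RAD51D, RAD54B and ATRIP lay lower in all 6 ways of ranking and windowing, and XRCC2, RBBP8, FANCE, FANCI and TP53BP1 lay higher in all 6. The share of all promoters called in all 6 was not counted here either. The shE2F1 replicates differed in depth, with 55.5 and 98.0 median cuts at these summits, and without replicate 2, 18 genes lay lower and 19 higher, against 44.9% and 31.7% of all promoters. Without shE2F1 replicate 1, 5 lay lower and 25 higher, against 27.3% and 43.8%. Without shCtrl replicate 1, 10 lay lower and 23 higher, against 32.1% and 29.6%, and without shCtrl replicate 2, 12 and 20, against 28.2% and 34.9%. Among the 8 genes with an E2F word in the promoter, 5 lay higher and none lower with shE2F1, with a median difference of 2.75. Among the 36 others, which include the 6 without a matched sequence, 12 lay higher and 5 lower, with a median of 0.85. Of all 561 promoters with the word that were compared, 24.4% lay higher and 15.7% lower, with a median of 0.24, and of the 9433 without it 18.8% and 16.8%, with a median of −0.05. With shEZH2 the 8 genes had 3 lower and 2 higher, against 33.7% and 10.5% of the 555 promoters with the word. The difference between genes with and without the word was not tested.

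**Figure D4:**
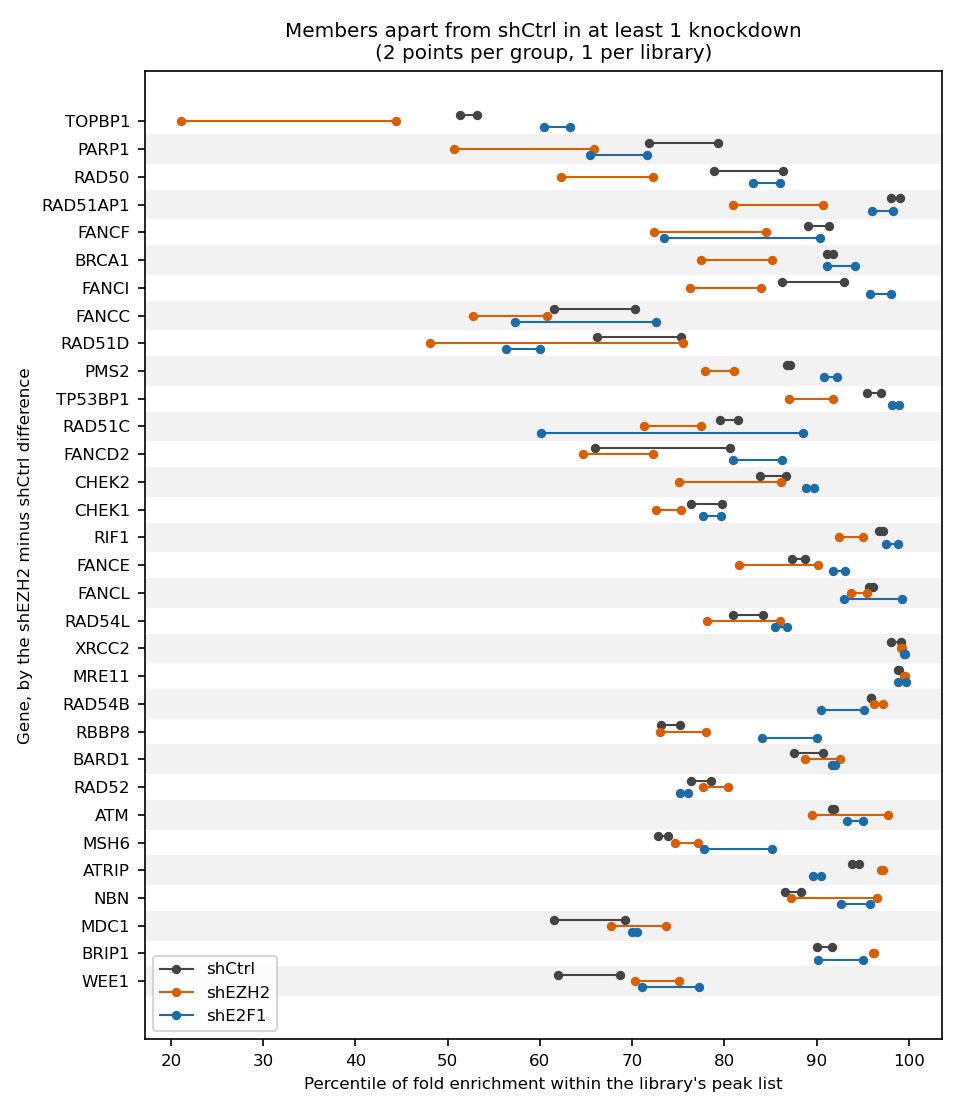
For each gene whose knockdown values did not overlap shCtrl in at least 1 knockdown, the points are the percentiles of the 2 libraries of shCtrl, shEZH2 and shE2F1 and the lines join the libraries of a group. Genes run from the lowest shEZH2 minus shCtrl difference at the top (TOPBP1, −19.5) to the highest at the bottom (WEE1, 7.37), and TOPBP1, FANCI, PMS2, TP53BP1 and RIF1 have shEZH2 left and shE2F1 right of shCtrl.

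The 2 knockdowns were measured against the same shCtrl libraries, so their differences from it are not independent. Side by side, 1 gene lay lower in both (PARP1), 3 lay higher in both (XRCC2, WEE1 and MSH6), 5 lay lower with shEZH2 and higher with shE2F1 (TOPBP1, FANCI, PMS2, TP53BP1 and RIF1), 2 the other way (RAD54B and ATRIP), and 11 overlapped shCtrl in both. Of 12070 promoters compared in both, 8.93% lay lower in both, 4.52% higher in both, 3.48% lower with shEZH2 and higher with shE2F1, 0.953% the other way, and 41.5% overlapped in both. In all, 7 of the 43 repair genes and 4.43% of these promoters lay on opposite sides of shCtrl. When the knockdowns were set directly against each other, 16 of 43 genes lay lower in shEZH2 than in shE2F1 and 4 lay higher, where 28.7% and 9.14% of 12090 promoters did. Among the 16 lower genes TOPBP1 differed most, by −29.1, followed by RAD50 by −17.3, FANCI by −16.8 and FANCD2 by −15.1. The RAD50 summits lay in different places in the 2 knockdowns. With all lists shortened to the same number of peaks the counts were 11 lower and 7 higher, against 17.6% and 18.5% of all promoters. Ranked by −log10 p they were 15 and 3, against 29.6% and 7.2%. Without shE2F1 replicate 1, 27 lay lower and 5 higher, against 53.8% and 15.7% of all promoters, and without shE2F1 replicate 2, 18 and 11, against 39.6% and 30.4%. Without shEZH2 replicate 1, 22 lay lower and 10 higher, against 50.1% and 20.9%, and without shEZH2 replicate 2, 26 and 8, against 41.8% and 23.5%.

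No promoter passed a test of the difference between the groups. limma was fitted to the log2 fold enrichment, quantile-normalised over the 12070 promoters with a peak in all 6 of these libraries, with Benjamini-Hochberg adjustment over all of them. For shEZH2 against shCtrl, 0 promoters had an adjusted p under 0.05 in limma, and 810 (6.71%) had an unadjusted p under 0.05. One repair gene was among the latter, RAD51AP1, with a fold enrichment of 16.4 and 18.7 in shCtrl and 12.1 and 10.2 in shEZH2. Its log2 difference was −0.45 ± 0.13 (SE), with an adjusted p of 0.564 in limma with Benjamini-Hochberg adjustment. BRCA1, with 13.4 and 14.0 in shCtrl against 10.9 and 9.68 in shEZH2, had a log2 difference of −0.21 ± 0.12 (SE) and an adjusted p of 0.790 by the same fit. TOPBP1, with 7.11 and 7.54 against 6.32 and 5.11, came to −0.18 ± 0.13 (SE).

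For shE2F1 against shCtrl, limma gave 0 promoters with an adjusted p under 0.05 and 684 (5.67%) with an unadjusted p under 0.05, of which none was a repair gene. The largest repair gene differences were FANCM at 0.30 ± 0.18 (SE), RBBP8 at 0.29 ± 0.13 (SE) and FANCI at 0.26 ± 0.14 (SE) on the log2 scale, and the lowest adjusted p of the 43 genes was 0.850 in limma. In the direct comparison of the knockdowns limma again gave 0 promoters after adjustment, and 1015 (8.41%) before it. Of the 43 genes, 6 were among these, FANCI, TOPBP1, ATRIP, TP53BP1, RAD51AP1 and PKMYT1, with FANCI at −0.45 ± 0.14 (SE) and an adjusted p of 0.494 in limma. The typical standard error of a repair gene was 0.13, and their log2 differences in the 2 contrasts with shCtrl all lay between −0.45 and 0.30. Their medians were −0.01 with shEZH2 and 0.03 with shE2F1, and those of all promoters were 0.01 and 0.0032.

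**Figure D5:**
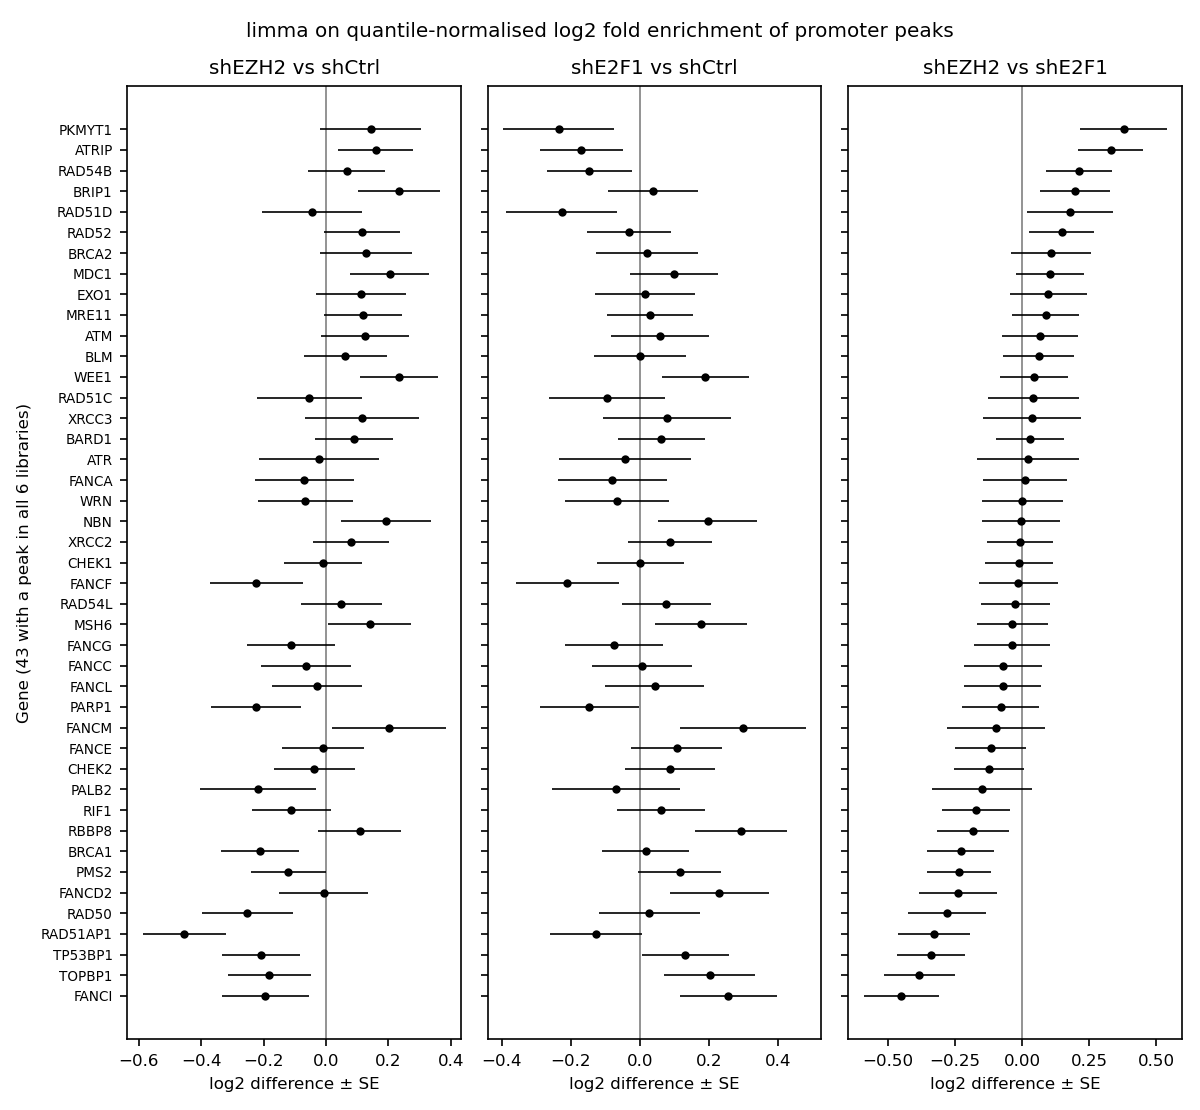
Points are the log2 differences in fold enrichment from limma for the 43 genes with a peak in all 6 libraries of shCtrl, shEZH2 and shE2F1, lines are ± 1 standard error, and genes are ordered by the direct comparison in the right panel. With shEZH2 the lowest is RAD51AP1 at −0.45, and in the right panel FANCI lies lowest at −0.45 and PKMYT1 highest at 0.38.

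The shSUZ12 library had no replicate. Of the 44 genes, 24 lay above both shCtrl libraries and 7 below, where 52.6% and 19.2% of all 12868 promoters did. The median difference was 1.97 percentile points, and 2.73 over all promoters. TOPBP1 had the largest difference, 24.3, followed by PKMYT1 at 13.1 and XRCC3 at 10.6. PKMYT1, the membrane-bound relative of WEE1, ranked at 74.2 and 64.9 in shCtrl, 66.0 and 78.8 in shEZH2, 43.4 and 67.9 in shE2F1, 82.7 in shSUZ12, 85.7 in DMSO and 73.0 in GSK126. XRCC3, which acts in homologous recombination, ranked at 67.0 and 91.4 in shCtrl, 81.4 and 84.4 in shEZH2, 77.3 and 89.7 in shE2F1, 89.8 in shSUZ12, 87.1 in DMSO and 93.1 in GSK126. Its shSUZ12 value lay between the 2 shCtrl values. FANCF was the lowest at −4.90, then WRN, the Werner syndrome helicase, at −3.49, and FANCE at −2.76. WRN ranked at 91.7 and 90.4 in shCtrl, 93.7 and 77.9 in shEZH2, 86.1 and 92.5 in shE2F1, 87.5 in shSUZ12, 84.0 in DMSO and 87.9 in GSK126. With every list shortened to the same number of peaks, 27 genes lay above and 3 below, against 62.4% and 13.1% of all promoters. Ranked among promoters alone, which was tried once the values were known, 12 genes lay above and 13 below shCtrl, against 34.9% and 32.9% of all promoters. Ranked by −log10 p, 14 lay above and 13 below, against 39.4% and 27.8%. Without shCtrl replicate 1, 15 genes lay below and 29 above the remaining one, against 35.6% and 64.4% of all promoters, and without shCtrl replicate 2, 12 and 32, against 31.5% and 68.5%.

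GSK126 and DMSO were compared over 1 library each, so their differences have no replicate check. A difference of more than 10 percentile points was counted, and 5 genes lay lower and 1 higher with GSK126, where 15.4% and 6.87% of 12823 promoters did. TOPBP1 differed by −33.1, FANCM by −15.6, FANCD2 by −15.2, RAD51B by −13.7 and PKMYT1 by −12.7. WEE1 was higher by 10.4, and RBBP8 by 8.41 and PMS2 by 7.73 were next without reaching 10. BRCA1 and PARP1 did not reach that mark either, at −9.71 and −9.78. Ranked by −log10 p, 4 genes lay lower and 0 higher, against 12.9% and 3.9% of all promoters. FANCD2 was the one gene lower in all 6 ways of ranking and windowing, and it had 59 cuts at its summit with DMSO and 38 with GSK126. How many of all promoters lay lower in all 6 was not counted. The median difference of the 44 genes was −0.22, and that of all promoters −0.76. By percentile in the whole lists, TOPBP1 thus had the lowest difference for shEZH2 and for GSK126 and the highest for shSUZ12. Ranked among promoters alone, it was not the lowest. Its difference there was −6.47 for shEZH2, where RAD51AP1 had −26.6, and −9.47 for GSK126, where PKMYT1 had −19.8. For shSUZ12 it was 21.4, still the highest.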

How the data were processed

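Peak lists of 9 ATAC-seq libraries of MDA-MB-231 cells were used. The authors aligned the reads with Bowtie2 (GRCh38 in the submitters' processing notes), shifted them for the Tn5 cut and called peaks in each library without pooling. The peak caller is not given in the sources used here. Multiple alignments per read were allowed, which can spread reads over repeated sequence. The deposited lists hold a score, a fold enrichment ratio over local background, the −log10 of p and the −log10 of q. The lowest deposited −log10 q was 2.00 and the shortest peak 200 bp, so weaker sites are not listed.

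Peaks were joined to promoters by at least 1 bp of overlap with the window of 1 kb on each side of the Ensembl canonical TSS of GENCODE release 44. Divergent neighbours were start sites on the opposite strand within 1 kb upstream. Cuts at the summit were recovered as whole numbers from fold enrichment and −log10 p for 395 of 395 peaks. This assumed the formula of the MACS peak caller. There, fold enrichment is the summit count over the background count with 1 added to each, and p is a Poisson tail. What is called cuts here is the count at the summit under that formula. Promoter sequences came from RefSeq on GRCh38.p14. limma 3.58.1 in R 4.3.3 was run over all promoters, with 3 residual degrees of freedom, and Python 3.11.15 for the rest. limma was tested on simulated data with normal noise and 200 planted changes per run. At an adjusted p under 0.05 it recovered 52.5% of changes of 1 log2 unit for shEZH2 and 39.5% for shE2F1. At 2 log2 units it recovered 92.5% and 88.5%. Smaller changes, such as those seen for the repair genes, were not simulated, so limma may miss changes of that size. P-values measure only the spread between these libraries.

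The 44 genes, the further 52 genes and the tests were chosen with earlier results of these data known. Values in every library are given for BRCA1, BRCA2, PALB2, BARD1, ATM, ATR, CHEK1, CHEK2, WEE1, FANCD2, FANCI, BLM, PARP1 and TP53BP1, genes lacking a peak, up to 5 genes in each direction with the largest non-overlapping differences for shEZH2 and shE2F1, and 3 in each direction for shSUZ12 and GSK126. The direct comparison of the knockdowns and ranks among promoters alone were added once values were known. Libraries with the same replicate number did not deviate together, as their deviations correlated at 0.0520, 0.0576 and −0.0232 across promoters. Alternatives were a −log10 q of at least 5, 500 bp windows, summits inside the window, lists of the same number of peaks, ranks by −log10 p, ranks among promoters alone, median centring, log2 of fold enrichment + 1, no filter on missing peaks, a replicate block and leaving out each replicate.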

Additional observations from a re-analysis of the deposited data

Results flagged for a closer look

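For 7 genes both shEZH2 libraries lay on one side of both shCtrl libraries and both shE2F1 libraries on the other, as for 535 of 12070 promoters compared (4.43%). In the mean percentile, shEZH2 minus shE2F1 was −29.1 for TOPBP1, −16.8 for FANCI, −12.0 for PMS2, −9.12 for TP53BP1, −4.44 for RIF1, 6.99 for ATRIP and 3.88 for RAD54B. As log2 fold enrichment in limma, the contrast of the knockdowns gave −0.38 ± 0.13 (SE) for TOPBP1, −0.45 ± 0.14 for FANCI, −0.24 ± 0.12 for PMS2, −0.34 ± 0.13 for TP53BP1, −0.17 ± 0.13 for RIF1, 0.33 ± 0.12 for ATRIP and 0.21 ± 0.12 for RAD54B. None had an adjusted p under 0.05 in limma, and the lowest was 0.494, for FANCI. These knockdowns share their shCtrl libraries, and the genes were picked out by their opposite directions. Of the 7, TP53BP1 alone kept its opposite calls in all 6 ways of ranking and windowing. RIF1 lay lower than shCtrl with shE2F1 in 1 of the 6 ways. How many of all promoters kept opposite calls in all 6 was not counted.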

How the results depend on the processing

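Shortening every list to the same number of peaks gave 8 genes lower and 12 higher for shEZH2 (14.4% and 23.9% of all promoters). The median difference was 0.71 (all promoters 1.30). Shortening gave 3 lower for shE2F1 (15.4% of all promoters) and 3 below shCtrl for shSUZ12 (13.1%). For GSK126 it gave 3 lower and 4 higher (11.9% and 13.4%) with a median of 0.28 (all promoters 0.41). In shEZH2 7 lay higher than in shE2F1 (18.5%). Ranking by −log10 p gave 19 genes lower and 1 higher for shEZH2 (42.2% and 4.15% of all promoters). For shE2F1 it gave 7 lower and 5 higher (22.8% and 12.4%), with a median of −0.40 (all promoters −0.94). For shSUZ12 it gave 13 below and 14 above shCtrl (27.8% and 39.4%), with a median of −0.0318 (all promoters 0.49). For GSK126 it gave 4 lower and 0 higher (12.9% and 3.9%). Ranking among promoters alone gave 11 higher for shEZH2 (20.9% of all promoters). For shSUZ12 it gave 13 below and 12 above (32.9% and 34.9%), with a median of −0.28 (all promoters 0.15). It gave 9 lower and 7 higher for GSK126 (14.9% and 15.4%), and 9 lower and 7 higher in shEZH2 than in shE2F1 (17.6% and 18.7%). With shCtrl in place of DMSO, GSK126 had 7 genes lower and 2 higher (13.6% and 9.67% of all promoters). The median was then 0.14 (all promoters 0.27). The cause of these shifts was not tested. Leaving out 1 replicate gave 17 to 22 lower and 11 to 17 higher for shEZH2 with medians from −3.24 to 0.29, and 5 to 18 lower and 19 to 25 higher for shE2F1. It gave 12 to 15 below and 29 to 32 above for shSUZ12, and 18 to 27 lower and 5 to 11 higher in shEZH2 than in shE2F1. Fewer libraries have to lie on one side there, and the shares of all promoters were larger too. They were 42 to 53.8% lower and 18 to 26.5% higher for shEZH2, and 27.3 to 44.9% lower and 29.6 to 43.8% higher for shE2F1. For shSUZ12 they were 31.5 to 35.6% below and 64.4 to 68.5% above. Between the knockdowns they were 39.6 to 53.8% lower and 15.7 to 30.4% higher. In limma, 500 bp windows gave 1 promoter past an adjusted p of 0.05 for shE2F1 (PBLD) and 2 between the knockdowns (PBLD and DUSP7), and no filter on missing peaks gave 1 between the knockdowns (C6orf62). None of these, named after their values were seen, is a repair gene. The replicate block gave 0 promoters and 0 repair genes in each contrast. The adjusted p of the repair genes over the limma alternatives ran from 0.398 for shEZH2, 0.521 for shE2F1 and 0.421 for the direct contrast upward. Between 42 and 44 genes had a peak in each library under the alternative thresholds and windows. Depth limits the weak promoters: 13 cuts at TOPBP1 leave a wide counting interval.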
